A study of Mus musculus with 8 samples.

Results

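The 8 libraries of this series were set against each other by the number in their name: the 4 columns of the count table numbered 2 or 4 against the 4 numbered 1 or 3, with 1 library of each number class in each of 4 sorted T cell populations. All 8 of the 8 libraries took part, 4 even and 4 odd. The split was chosen because earlier results of these data had shown a difference in interferon-response genes between the numbers, so every even-odd value here is a description, printed with no p-value. The labels do not say what the number stands for, such as an animal, a sort or a sequencing run, and these cannot be told apart.

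The study took CD4 T cells from the mesenteric lymph nodes of mice of the genotype Foxp3DTR-GFP/Thy1.1 CD4CreER/wt R26lsl-tdTomato/wt. Foxp3 is the transcription factor of regulatory T (Treg) cells, and its alleles here carry GFP, with the diphtheria toxin receptor, or Thy1.1 as reporters. Tamoxifen activates the CD4-driven Cre, which turns on red fluorescent tdTomato. All mice were raised on AVNM and an amino acid-based diet, and were then given tamoxifen and diphtheria toxin over about 3 weeks. They were next moved to chow, received fecal microbiota from SPF donors, and were sampled 12 days later. The populations were tdTomato-positive GFP, tdTomato-negative GFP, tdTomato-positive Thy1.1 and tdTomato-negative Thy1.1 cells, 2 libraries each, double sorted into Trizol. No group was left uncolonized. The labels used here state neither the age and sex of the mice nor whether cells of several mice were pooled. Foxp3 lies on the X chromosome, so a genotype with both a GFP and a Thy1.1 allele is that of female mice. The table numbers the GFP libraries 3 and 4 where the sample titles say 1 and 2. That GFP library 4 stands on the same side as Thy1.1 library 2 therefore rests on the order of the numbers alone.

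Each library held between 38085686 and 47908198 counts, and CPM below is the count scaled by TMM to a common library total, not by gene length. Markers of the sorted cells were present in all 8 libraries. Foxp3 lay between 141 and 201 CPM in the even libraries and between 126 and 186 CPM in the odd ones. The interleukin-2 receptor chain Il2ra lay between 807 and 1309 CPM in the even libraries and between 631 and 892 CPM in the odd ones, and Cd3e of the T cell receptor complex lay between 965 and 1195 CPM in the even libraries and between 1026 and 1374 CPM in the odd ones. One odd library, tdTomato-negative GFP library 3, also held RNA of other cells: Siglech, a plasmacytoid dendritic cell receptor, was at 36.8 CPM and the class II gene H2-Aa at 34.0 CPM. Another, tdTomato-positive GFP library 3, had 29.5 CPM of Hba-a2, a haemoglobin gene.

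Type I interferons act through the receptor chains Ifnar1 and Ifnar2, whose kinases activate STAT transcription factors. Stat2 and Irf9 belong to the complex that then binds interferon-stimulated response elements near genes of antiviral defence, among them the IFIT, OAS and MX genes. Interferon-gamma acts through Ifngr1 and Ifngr2 and favours GTPases of the GBP and IRG families and antigen presentation, and many genes answer both. The Isg15 system, Usp18 and the SOCS proteins feed back on the signal.

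Interferon-response genes were higher in the even libraries in all 4 populations. Across 13989 tested genes, 65 passed the threshold as higher in the even libraries (0.465% of those tested), and 0 as lower. The threshold was an adjusted p of 0.05 in edgeR's quasi-likelihood test with a mean for each population; at an unadjusted p of 0.05 there were 557 higher and 418 lower genes, and DESeq2 called 190 higher and 39 lower. Of the 65 genes, 50 belonged to 10 lists of interferon-response genes and 15 did not. All 65 were higher in the even library of 4 of 4 populations. Their log2 fold changes ran from 0.43 to 5.0 with a median of 1.06, so that 37 exceeded a 2-fold and 12 a 4-fold difference. Since the split was chosen on this difference, nothing is read from these counts.

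Without 1 library, its population no longer contributes to the even-odd difference, and fewer genes passed. The count was 30 without tdTomato-negative GFP library 4, 30 without tdTomato-negative GFP library 3, 30 without tdTomato-positive Thy1.1 library 2 and 38 without tdTomato-positive Thy1.1 library 1. It was 27 without tdTomato-negative Thy1.1 library 2 and 29 without tdTomato-negative Thy1.1 library 1. The fits without either tdTomato-positive GFP library are covered by the range given under processing below. The median over interferon-response genes lay between 0.62 and 0.71 in all 8 fits without 1 library. As the split was chosen on these genes, nothing is read from that. The 30 genes that passed without tdTomato-negative GFP library 3, the library with dendritic cell RNA, were all among the 65.

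The 10 lists named 160 interferon-response genes, of which 154 were in the table and 139 passed the filter on low counts. Their median log2 fold change was 0.66, against -0.01 over all tested genes. In 72 of the 139 the 4 even libraries all lay above the 4 odd ones, whatever the population, which was so for 199 of all tested genes (1.42%); the reverse order was seen in 0 of the 139 and in 102 of all tested genes (0.729%). In 111 the even library was the higher one in each of the 4 populations, and in 1, Ifitm2, it was the lower one in each. Over all 13989 tested genes, it was the higher one in each population for 1168 and the lower one in each for 1151. Among the 139, the log2 fold change was above 0 for 133 and below 0 for 6, namely Ifitm2, Ifngr1, Irf8, Mb21d1, Socs3 and Tyk2. Of the listed genes, 13 were listed at 0 in every library. H2-D1, a class I gene that nearly all cells use, was one of them, so these zeros are given only as listed.

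**Figure D1:**
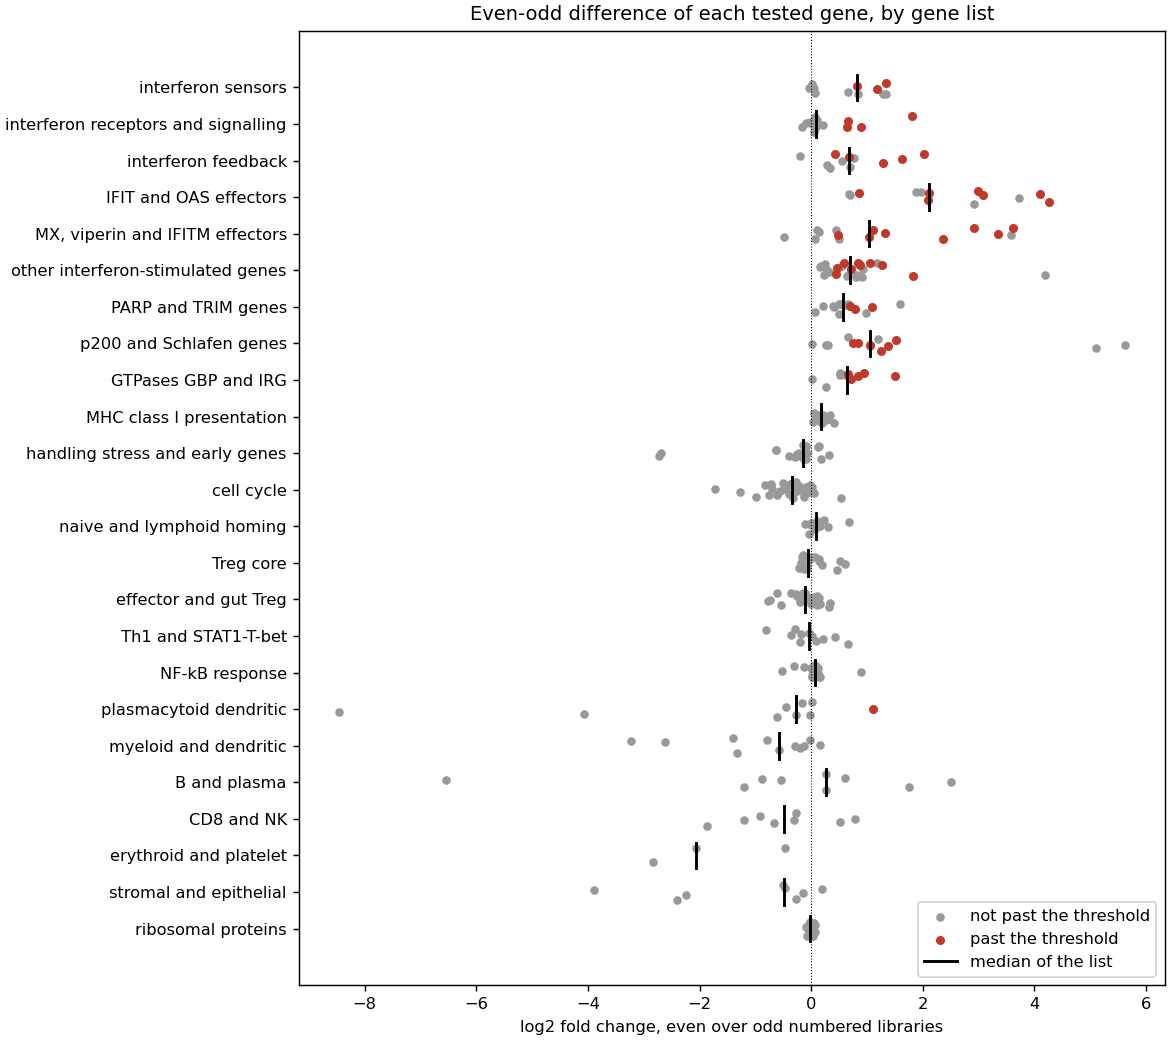
Each point is 1 tested gene, placed by its log2 fold change, even over odd libraries (x axis), within its gene list (y axis); red points passed the threshold and the black bar is the list's median. The interferon effector lists lie to the right of 0, with a median of 2.11 for the IFIT and OAS genes, and the cell cycle list lies to the left with a median of -0.34.

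Most genes of the interferons themselves were listed at 0. Of 12 interferon genes looked up, 10 were listed at 0 in all 8 libraries, including Ifnb1 and the 6 listed genes of the alpha family, and Ifng alone passed the filter. These zeros, too, are given only as listed. Ifng, the gene of interferon-gamma, had 0, 0.198, 2.29 and 1.66 CPM in the even libraries, against 2.39, 0.324, 1.53 and 0 CPM in the odd libraries, here and below in the order tdTomato-positive GFP, tdTomato-negative GFP, tdTomato-positive Thy1.1, tdTomato-negative Thy1.1. Its libraries overlapped and had no common direction.

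The receptor chains and kinases differed little between the numbers, while the transcription factors Irf7, Stat2 and Irf9 differed more. The list of receptors and signalling genes had 4 of 13 genes past the threshold and a median of 0.09. Ifnar1 had 107, 273, 192 and 276 CPM in the even libraries, against 132, 224, 198 and 252 CPM in the odd libraries, a log2 fold change of 0.02 ± 0.10 (SE, as for all fold changes below). Ifnar2 had 99.3, 145, 179 and 185 CPM in the even libraries, against 81.4, 131, 154 and 159 CPM in the odd libraries (0.22 ± 0.07). Both chains overlapped between the numbers. The log2 fold changes of the kinases were 0.07 ± 0.07 for Jak1 and -0.02 ± 0.09 for Tyk2, and that of Irf1, a factor of the interferon-gamma response, was 0.05 ± 0.05.

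Irf7, the factor that amplifies type I interferon responses, had 269, 282, 261 and 248 CPM in the even libraries, against 71.7, 80.3, 69.5 and 81.4 CPM in the odd libraries, a log2 fold change of 1.81 ± 0.08. Every even library was at least 3-fold above the odd library of its population. Stat2 and Irf9 were also higher, with 0.89 ± 0.11 for Stat2 and 0.64 ± 0.08 for Irf9. Reads of Irf7 and Irf9 can be shared with Phrf1 and Rnf31, whose exons overlap theirs, since the kit does not mark strand.

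The list of sensors of foreign nucleic acid had 3 of 11 genes past the threshold and a median of 0.82. Dhx58, a RIG-I-like helicase, had a log2 fold change of 1.33 ± 0.18, the kinase Eif2ak2 of 1.18 ± 0.13 and Zbp1, which binds Z-form nucleic acid, of 0.82 ± 0.07. Ifih1, which senses long double-stranded RNA, had 1.29 ± 0.20 and Ddx58, which is RIG-I, 0.66 ± 0.10; neither passed the threshold, yet in both the even and odd libraries did not overlap. Tmem173, which is STING, had 0.05 ± 0.05, Aim2 0.06 ± 0.10, Mb21d1, which makes the messenger that activates STING, -0.03 ± 0.35, and Mavs, the adaptor below the RNA sensors, 0.01 ± 0.11. These 4 overlapped between the numbers.

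The feedback list, most of it the Isg15 system, had 5 of 11 genes past the threshold and a median of 0.68. Usp18, which removes Isg15 from proteins and dampens the type I receptor, had 125, 284, 252 and 301 CPM in the even libraries, against 15.2, 71.1, 79.9 and 109.5 CPM in the odd libraries (2.02 ± 0.24). Isg15, a ubiquitin-like protein, had 97.5, 66.4, 58.3 and 50.3 CPM in the even libraries, against 25.1, 28.5, 17.9 and 16.2 CPM in the odd libraries (1.63 ± 0.14). For both genes the lowest even library stood above the highest odd one. The conjugating enzyme Ube2l6 had 1.28 ± 0.13 and the ligase Herc6 0.68 ± 0.08, while the activating enzyme Uba7 had 0.34 ± 0.08 and did not pass. The suppressors of cytokine signalling had 0.56 ± 0.10 for Socs1 and -0.20 ± 0.08 for Socs3, with overlap in both.

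The IFIT and OAS genes, which bind viral RNA or answer it with a second messenger, had the largest median of any list, 2.11, although single genes of other lists differed more. All 13 were higher in the even library of each of the 4 populations, 10 without any overlap, and 7 passed the threshold. Their summed level was 1050, 1570, 1322 and 1334 CPM in the even libraries, against 155, 308, 326 and 366 CPM in the odd libraries. Ifit3 had 162, 186, 174 and 159.9 CPM in the even libraries, against 6.61, 10.6, 16.5 and 8.11 CPM in the odd libraries (4.11 ± 0.21). The near copy Ifit3b, with which Ifit3 may share reads, had 65.7, 85.2, 78.5 and 61.1 CPM in the even libraries, against 2.73, 3.29, 7.16 and 3.03 CPM in the odd libraries (4.26 ± 0.24). In both genes the 4 even libraries lay close together, and the tdTomato-positive Thy1.1 library was the highest of the odd ones.

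Ifit1 had 159, 283, 213 and 223 CPM in the even libraries, against 9.63, 44.5, 28.5 and 32.2 CPM in the odd libraries (3.08 ± 0.23). It did not overlap, and the tdTomato-positive GFP library was the lowest on each side. The synthetase Oas2 had 33.4, 54.6, 18.3 and 43.1 CPM in the even libraries, against 1.31, 1.15, 2.70 and 9.59 CPM in the odd libraries (3.72 ± 0.60), and Oasl2, a relative, 50.5, 58.1, 63.5 and 54.2 CPM in the even libraries, against 1.69, 6.73, 16.1 and 12.7 CPM in the odd libraries (2.92 ± 0.47). Both missed the threshold although their libraries did not overlap. The even-odd difference of Oas2 ran from 2.17 to 5.56 and that of Oasl2 from 1.98 to 4.89 on the log2 scale. Oasl1 (2.99 ± 0.28), Oas3 (2.11 ± 0.22) and Ifit1bl1 (2.10 ± 0.14) passed, and Ifit2 (0.86 ± 0.12) passed with overlap.

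**Figure D2:**
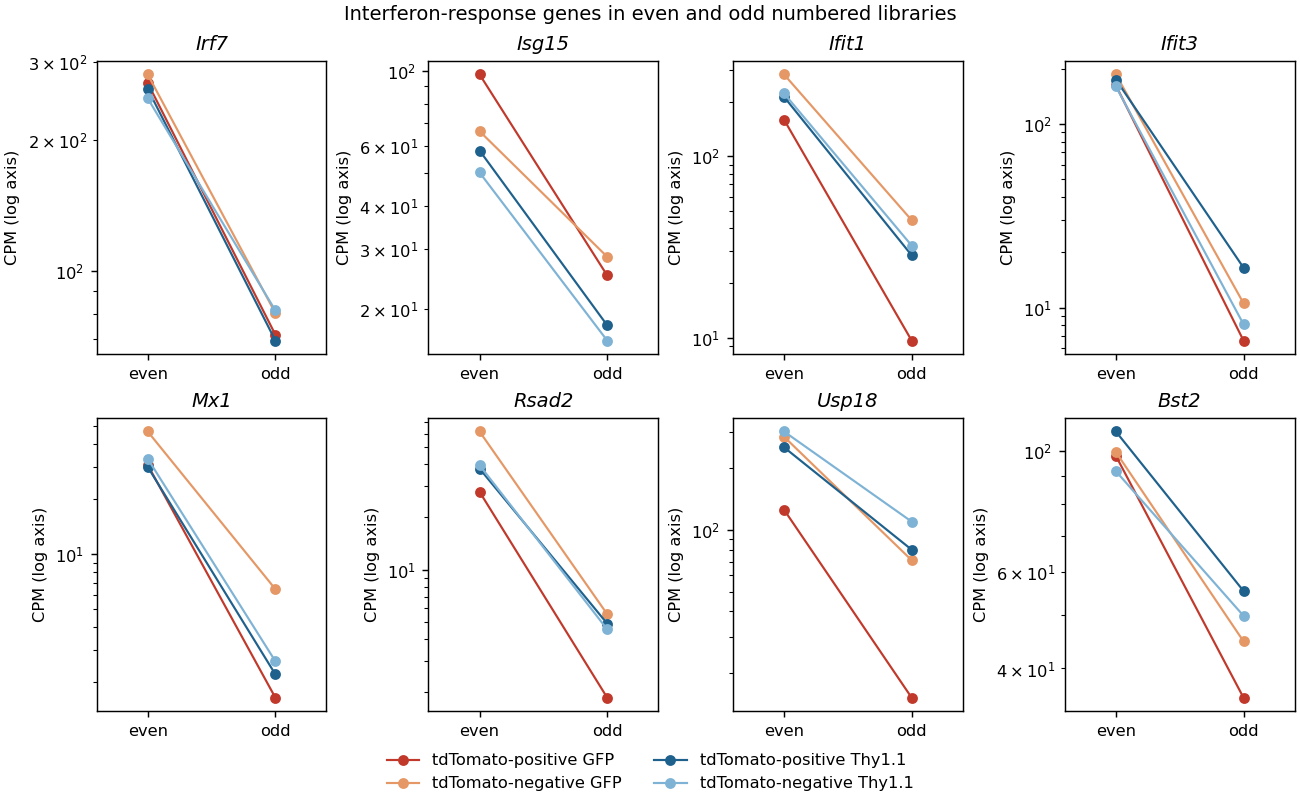
CPM on log axes (y axis, a range of its own per panel) of 8 interferon-response genes in the even library of each population (left) and the odd library (right); each line joins the libraries of 1 population. All 32 lines fall to the right, most steeply for Ifit3, where the 4 even libraries lie between 160 and 186 CPM and the 4 odd ones between 6.61 and 16.5 CPM.

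The list of MX, viperin and IFITM genes had 8 of 15 genes past the threshold and a median of 1.03. Mx1, a dynamin-like GTPase that RefSeq lists as a transcribed pseudogene in the reference strain, had 30.7, 46.8, 30.0 and 33.2 CPM in the even libraries, against 1.65, 6.45, 2.21 and 2.60 CPM in the odd libraries (3.61 ± 0.25). Rsad2, which is viperin, had 27.9, 61.7, 37.9 and 39.6 CPM in the even libraries, against 1.85, 5.56, 4.91 and 4.55 CPM in the odd libraries (3.35 ± 0.20), and Cmpk2, the nucleotide kinase gene beside it, had 2.36 ± 0.17. Mx1 and Rsad2 were without overlap.

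Ifitm3, a membrane protein that blocks the entry of viruses, had 45.9, 23.8, 8.82 and 9.64 CPM in the even libraries, against 4.90, 2.77, 1.39 and 1.52 CPM in the odd libraries (2.92 ± 0.22). The sides did not overlap, and the highest library of each was the tdTomato-positive GFP one. Bst2, which is tetherin, had 97.9, 99.5, 109 and 91.8 CPM in the even libraries, against 35.4, 44.8, 55.4 and 49.9 CPM in the odd libraries (1.12 ± 0.12), with little spread among populations. The relative Ifitm2 went the other way with -0.48 ± 0.26, at a low level and with overlap. The exonuclease Isg20 (1.03 ± 0.10), Xaf1 (1.32 ± 0.14) and the nucleotide hydrolase Samhd1 (0.49 ± 0.05) passed, and the RNA editor Adar (0.50 ± 0.14) did not.

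Promoters of 5 of these genes are shown because they bear, or lack, the doubled GAAA motif of interferon-stimulated response elements. Each is RefSeq's window of 250 bases before to 50 bases after the gene start (GRCm38.p6), written 5′ to 3′ on the strand of the gene, with matches to GAAANNGAAA or its reverse complement TTTCNNTTTC in capitals. Isg15 lies at chr4:156200769-156201068 (minus strand), Ifit1 at chr19:34640639-34640938 (plus), Ifit3 at chr19:34583279-34583578 (plus), Rsad2 at chr12:26456403-26456702 (minus) and Irf7 at chr7:141266375-141266674 (minus).
Isg15: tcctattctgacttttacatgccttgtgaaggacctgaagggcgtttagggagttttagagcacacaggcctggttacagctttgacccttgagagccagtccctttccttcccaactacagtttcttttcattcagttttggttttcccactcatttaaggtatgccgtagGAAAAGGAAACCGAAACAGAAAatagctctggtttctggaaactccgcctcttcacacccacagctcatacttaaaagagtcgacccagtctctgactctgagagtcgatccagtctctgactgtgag
Ifit1: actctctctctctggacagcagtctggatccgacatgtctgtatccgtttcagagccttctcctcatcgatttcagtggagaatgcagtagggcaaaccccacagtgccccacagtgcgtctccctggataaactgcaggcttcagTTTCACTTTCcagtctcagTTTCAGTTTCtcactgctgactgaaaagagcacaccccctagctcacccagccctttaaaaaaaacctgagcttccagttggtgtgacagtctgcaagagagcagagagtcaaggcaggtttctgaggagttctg
Ifit3: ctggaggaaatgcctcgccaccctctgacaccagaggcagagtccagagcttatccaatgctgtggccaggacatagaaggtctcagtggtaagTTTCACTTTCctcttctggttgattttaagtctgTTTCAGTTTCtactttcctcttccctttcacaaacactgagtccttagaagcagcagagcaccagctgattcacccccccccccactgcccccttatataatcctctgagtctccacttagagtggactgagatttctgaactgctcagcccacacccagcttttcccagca
Rsad2: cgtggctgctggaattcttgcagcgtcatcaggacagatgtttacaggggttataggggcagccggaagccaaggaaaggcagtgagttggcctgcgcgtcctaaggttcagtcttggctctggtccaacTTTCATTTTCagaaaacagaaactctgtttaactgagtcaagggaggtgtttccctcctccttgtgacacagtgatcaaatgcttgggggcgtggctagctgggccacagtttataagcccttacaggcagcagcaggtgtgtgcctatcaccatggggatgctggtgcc
Irf7: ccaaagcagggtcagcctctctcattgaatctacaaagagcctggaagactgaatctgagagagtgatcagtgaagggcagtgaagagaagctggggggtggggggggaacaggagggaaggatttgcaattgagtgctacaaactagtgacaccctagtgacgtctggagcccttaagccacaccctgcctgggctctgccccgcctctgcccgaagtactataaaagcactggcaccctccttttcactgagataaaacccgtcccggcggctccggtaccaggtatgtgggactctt
Isg15 had 3 overlapping matches, Ifit1 and Ifit3 had 2 each, Rsad2 had 1, and these letters were not in the Irf7 window.

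Over all genes with a window in the table, the motif was found in 20 of 37 interferon-response genes past the threshold (54.1%) and in 30 of 73 tested and not past it (41.1%). It was found in 406 of 10766 tested genes with a window (3.77%) and in 1079 of all 27025 genes with one (3.99%). Among the 10 genes past the threshold outside the lists that had a window, 2 held it (20%). The palindrome TTCNNNGAA, the core of sites bound by STAT dimers, was found in 8 of the 37 (21.6%), 12 of the 73 (16.4%) and 894 of the 10766 tested genes (8.30%). A match is a run of letters and no measured binding site. Usp18, Mx1, Gbp4 and Iigp1 had no entry.

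**Figure D3:**
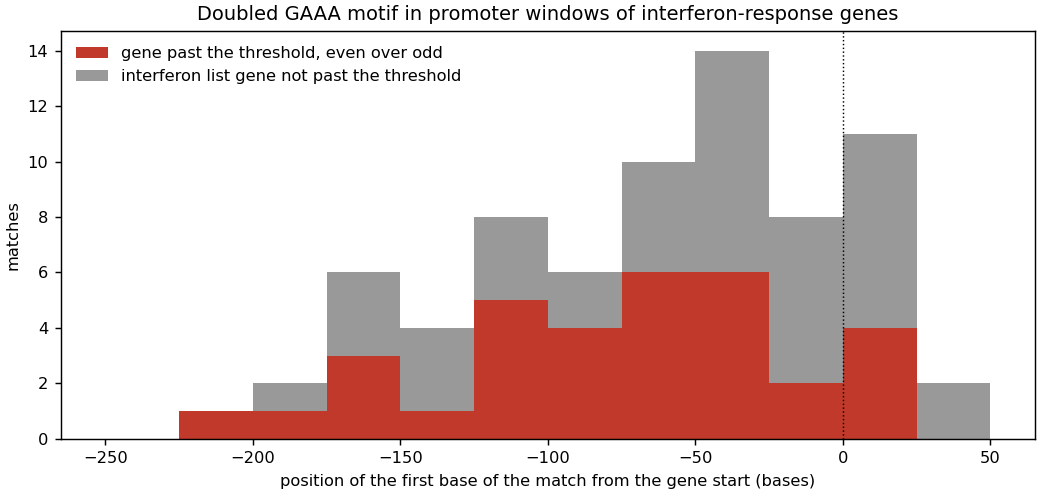
Number of matches to the doubled GAAA motif in promoter windows (y axis), stacked in bars of 25 bases. The x axis is the position of their first base relative to the gene start. Red marks genes past the even-odd threshold, among them Gm12250 and Ifi214, which are outside the interferon lists. Grey marks interferon-response genes tested and not past it. Matches in red genes lie from 225 bases before the start onwards, with 6 in each of the bars between 75 and 25 bases before it.

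Of the 24 genes of a mixed list of other interferon-stimulated genes, 9 passed, 22 were higher in the even library of each population, and the median was 0.69. Their log2 fold changes ran from 0.15 to 4.18. The widest was that of Ifi44, an interferon-induced gene, which had 6.80, 35.1, 18.9 and 27.9 CPM in the even libraries, against 0, 2.83, 1.82 and 1.72 CPM in the odd libraries (4.18 ± 0.64). It did not overlap and did not pass the threshold. Ly6a, a surface protein also called Sca-1, had 746, 243, 246 and 188 CPM in the even libraries, against 423, 168, 105 and 108 CPM in the odd libraries (0.84 ± 0.11). The even library was the higher one in each population, but the sides overlapped, because both tdTomato-positive GFP libraries held more Ly6a than any other library of their side. Rtp4 (1.82 ± 0.10), Lgals3bp (1.27 ± 0.13), Daxx (0.87 ± 0.08) and Ifi27l2a (0.71 ± 0.08) passed without overlap, and Ly6e (0.18 ± 0.04) did not pass.

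The p200 genes, several of which bind DNA, and the Schlafen genes had 6 of 14 past the threshold and a median of 1.06. Among them were Ifi213 (1.52 ± 0.13), Ifi208 (1.25 ± 0.15), Slfn5 (1.38 ± 0.19) and Slfn1 (1.06 ± 0.15). Wider differences of the same list, at low levels, were those of Ifi207, which had 1, 3, 31 and 38 counts in the even libraries, against 0, 0, 1 and 0 counts in the odd libraries, and Ifi211, which had 4.75, 1.78, 0.640 and 0.817 CPM in the even libraries, against 0, 0, 0.225 and 0.0635 CPM in the odd libraries. Neither passed, and Ifi207 had 1 count in its lowest even and in its highest odd library. The PARP and TRIM list had 3 of 14 and a median of 0.57, with Trim30a (1.1 ± 0.14), Parp14 (0.78 ± 0.08) and Parp9 (0.70 ± 0.08). Reads of Parp9 can be shared with Dtx3l, those of Slfn5 with Slfn5os, and those of the p200 genes with near copies.

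The GTPases of the GBP and IRG families, which attack the vacuoles of intracellular microbes, had 5 of 10 past the threshold and a median of 0.64. Iigp1 had 1.5 ± 0.10, Irgm1 0.95 ± 0.08, Gbp9 0.84 ± 0.10, Gbp4 0.71 ± 0.08 and Irgm2 0.67 ± 0.08, where Gbp4 and Gbp9 have overlapping exons. The genes of class I antigen presentation had 0 of 14 past the threshold in edgeR's test, with 8 at an unadjusted p of 0.05 and 5 called by DESeq2, all higher in the even libraries, and a median of 0.18. Tap1, a peptide transporter, had 0.34 ± 0.05, H2-K1 0.21 ± 0.05, B2m 0.16 ± 0.05 and Nlrc5, an activator of class I genes, 0.41 ± 0.13.

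The even-odd difference was present in each population taken alone. The median over the 139 interferon-response genes, even minus odd library, was 0.79 in tdTomato-positive GFP, 0.73 in tdTomato-negative GFP, 0.50 in tdTomato-positive Thy1.1 and 0.58 in tdTomato-negative Thy1.1 cells on the log2 scale. Over all tested genes the same medians lay between -0.02 and 0.00. For the IFIT and OAS genes they were 3.09, 2.44, 1.98 and 1.65 in the same order. Each is 1 library against 1.

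**Figure D4:**
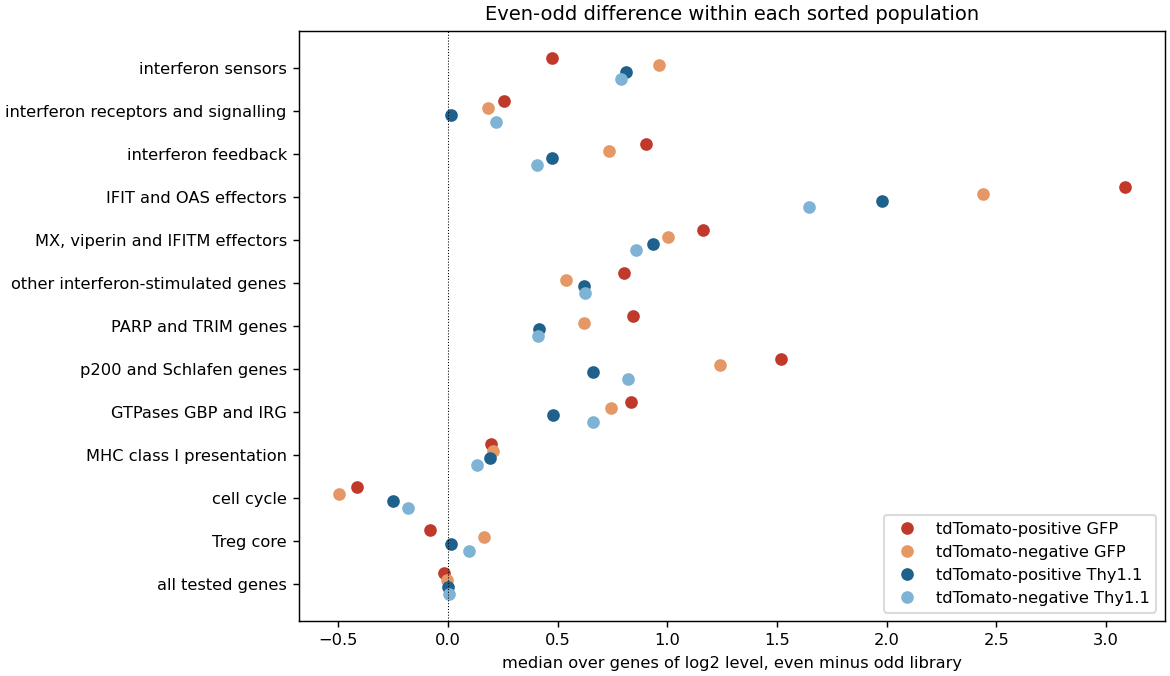
Median over the genes of a list of the log2 level in the even minus that in the odd library (x axis), for each list (y axis) and each of the 4 populations (colours), with 1 library a side. All 10 interferon lists lie to the right of 0 in every population, and all tested genes lie at 0. The IFIT and OAS genes lie farthest out (1.65 to 3.09). The class I list lies at 0.13 to 0.20, and the receptor list comes down to 0.02 in tdTomato-positive Thy1.1 cells.

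Whether the even-odd difference had 1 size in all populations was tested as an interaction. For GFP minus Thy1.1 cells, this term depends on which GFP library is set on the side of which Thy1.1 library. That rests on number order alone, and the split was chosen on interferon-response genes. For these genes the interaction is therefore not independent of the choice of the split, and its values are a description. In GFP minus Thy1.1 cells, 0 of 13989 genes passed the threshold in edgeR's quasi-likelihood test, with 1083 at an unadjusted p of 0.05; DESeq2 called 124, of which 9 were interferon-response genes. The median interaction over the 139 interferon-response genes was 0.13, against -0.02 over all tested genes. That of Usp18 was 0.94 ± 0.33 (adjusted p = 0.618 by edgeR), that of Oasl2 1.91 ± 0.56 (adjusted p = 0.613) and that of Irf7 0.10 ± 0.15 (adjusted p = 0.906). In tdTomato-positive minus tdTomato-negative cells, 0 genes passed in edgeR's test, with 371 at an unadjusted p of 0.05 and 4 called by DESeq2, 0 of them interferon-response genes. The median was 0.07 for interferon-response genes and 0.00 for all. With 2 residual degrees of freedom, these tests do not show that the populations responded alike.

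The populations themselves, each with 1 even and 1 odd library, were compared for the same 139 genes. Here the fit held a mean per population and no term for the number. For GFP over Thy1.1 in tdTomato-positive cells, 17 of the 139 passed (12.2%, against 14.8% of all tested genes), 2 higher and 15 lower, where 8.01% of all tested genes were higher and 6.82% lower. The lower ones included both chains of the type I receptor: Ifnar1 had 107 and 132 CPM in GFP cells, against 192 and 198 CPM in Thy1.1 cells (log2 fold change -0.70 ± 0.14, adjusted p = 0.0143 by edgeR). Ifnar2 had 99.3 and 81.4 CPM in GFP cells, against 179 and 154 CPM in Thy1.1 cells (-0.88 ± 0.14, adjusted p = 0.0075). In both genes the 4 libraries did not overlap between the reporters.

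Tlr7, the endosomal receptor of single-stranded RNA, had 3.49 and 2.82 CPM in GFP cells, against 33.6 and 18.4 CPM in Thy1.1 cells (-3.04 ± 0.52, adjusted p = 0.00912 by edgeR). Ifngr2 (-1.35 ± 0.18), H2-Q7 (-1.5 ± 0.20), Ms4a4c (-2.28 ± 0.52) and Ly6c1 (-1.82 ± 0.32) were also lower. The 2 higher genes were Ly6a (1.74 ± 0.46, adjusted p = 0.04 by edgeR) and the proteasome activator Psme2 (0.54 ± 0.10). Ifit3, Irf7 and Mx1, all past the even-odd threshold, did not pass here: Ifit3 had -0.18 ± 2.06, Irf7 0.04 ± 1.01 and Mx1 0.01 ± 1.79. Their standard errors hold the even-odd difference, since each population has 1 even and 1 odd library. With a term for the number, Usp18 (-1.61 ± 0.34) and Ifit2 (-0.76 ± 0.17) passed as lower and Ifitm3 (2.11 ± 0.30) as higher. Ifit1, Ifit3, Irf7, Mx1 and Rsad2 did not pass in that fit. There 30.2% of the 139 genes passed, against 15.8% of all tested genes, so nothing is read from the share in either fit. The count was 4 without tdTomato-positive Thy1.1 library 2, 7 without tdTomato-positive Thy1.1 library 1 and 11 without tdTomato-positive GFP library 3.

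For tdTomato-positive over tdTomato-negative in GFP cells, a comparison that shares the tdTomato-positive GFP libraries, 16 of the 139 passed (11.5%, against 12.6% of all tested genes), 3 higher and 13 lower, where 6.24% of all tested genes were higher and 6.4% lower. Ifnar1 had 107 and 132 CPM in tdTomato-positive cells, against 273 and 224 CPM in tdTomato-negative cells (-1.05 ± 0.14, adjusted p = 0.00447 by edgeR). Tlr7 (-3.41 ± 0.53), Ifngr2 (-1.75 ± 0.18) and Ifnar2 (-0.61 ± 0.14) were lower too, and Ifitm2 (2.59 ± 0.43), Psme2 (0.50 ± 0.10) and Ifngr1 (0.49 ± 0.12) were higher. With a term for the number, the shares were 27.3% of the 139 and 13.3% of all tested genes. Ifit1 (-1.425 ± 0.31), Rsad2 (-1.32 ± 0.27), Mx1 (-1.265 ± 0.33) and Usp18 (-1.60 ± 0.34) passed as lower in that fit. Ly6a (1.47 ± 0.16) passed as higher there, while Ifit3, Isg15, Irf7 and Oasl2 did not pass. The count without that term was 5 without tdTomato-negative GFP library 4 and 8 without tdTomato-positive GFP library 3.

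In the remaining comparisons 0 of the 139 passed edgeR's test. The comparison of GFP over Thy1.1 in tdTomato-negative cells gave 3 at an unadjusted p of 0.05, against 1662 of all 13989 tested genes. DESeq2 called 1 of the 139 (0.719%), against 581 of all tested genes (4.15%). In edgeR's test 0.164% of all tested genes passed the threshold (0.0643% higher, 0.1% lower). That of tdTomato-positive over tdTomato-negative in Thy1.1 cells gave 8 at an unadjusted p of 0.05, against 1063 of all 13989 tested genes. DESeq2 called 0 of the 139, against 148 of all tested genes (1.06%). In edgeR's test 0% of all tested genes passed the threshold.

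Of the 15 genes past the even-odd threshold outside the lists, several belong to families of the lists. Gbp10 had 193, 198, 167 and 216 CPM in the even libraries, against 62.3, 73.3, 64.8 and 70.5 CPM in the odd libraries (1.51 ± 0.08). Ifi214, a p200 gene, had 70.7, 109, 79.4 and 101 CPM in the even libraries, against 19.9, 41.1, 34.8 and 31.1 CPM in the odd libraries (1.53 ± 0.13). Both were without overlap, as was H2-T24 (1.02 ± 0.10), a class I gene outside the classical set. Samd9l, an antiviral gene, had 0.94 ± 0.12, and Slfn5os, which overlaps Slfn5, had 1.36 ± 0.19.

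Tsc22d3, a glucocorticoid-induced gene also called Gilz, had 210.2, 453, 439 and 459.8 CPM in the even libraries, against 149, 230.1, 214 and 242 CPM in the odd libraries (0.86 ± 0.10). The sides overlapped through the tdTomato-positive GFP library, the lowest of the even ones. Amica1, an adhesion molecule, had 15.9, 18.2, 17.1 and 19.8 CPM in the even libraries, against 4.02, 5.08, 3.09 and 8.59 CPM in the odd libraries (1.87 ± 0.26). Cdk5rap1, an enzyme of transfer RNA modification, had 51.4, 52.1, 90.1 and 98.6 CPM in the even libraries, against 32.0, 31.9, 50.1 and 49.2 CPM in the odd libraries (0.81 ± 0.10). Erdr1 had 0.85 ± 0.09 and the adaptor Hsh2d 1.01 ± 0.12.

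Lists of other programmes held 0 genes past the threshold, Bst2 apart. Among the 18 core Treg genes 0 passed, with 3 higher and 1 lower at an unadjusted p of 0.05 and 1 higher by DESeq2, and the median was -0.05. Foxp3 had 141, 166, 187 and 201 CPM in the even libraries, against 126, 146, 186 and 175 CPM in the odd libraries (0.14 ± 0.07). The 32 cell cycle genes had a median of -0.34, with 0 past the threshold, 11 lower at an unadjusted p of 0.05 and 1 lower by DESeq2. The 9 of them that were lower in the even library of each population included Rrm2, a subunit of ribonucleotide reductase, which had 179, 56.0, 15.1 and 14.8 CPM in the even libraries, against 253, 104, 19.1 and 24.0 CPM in the odd libraries (-0.61 ± 0.11). Over all 13989 tested genes, 1151 were lower in the even library of each population. The 26 genes of effector and gut Treg cells had a median of -0.11, with 0 past the threshold, 5 lower at an unadjusted p of 0.05 and 2 lower by DESeq2, and 6 were lower in the even library of each population. One of these, the gut homing receptor Ccr9, had 283, 179, 116 and 120.3 CPM in the even libraries, against 536, 325, 153 and 145 CPM in the odd libraries (-0.61 ± 0.12), with overlap. The 14 genes of naive cells and lymphoid homing had a median of 0.09, with 0 past the threshold and 2 higher both at an unadjusted p of 0.05 and by DESeq2. The interleukin-7 receptor chain Il7r had 245, 143, 299 and 219 CPM in the even libraries, against 176, 67.7, 205 and 142 CPM in the odd libraries (0.68 ± 0.11), with overlap. The 11 Th1 genes had a median of -0.04, with 0 past the threshold, 0 at an unadjusted p of 0.05 and 0 by DESeq2.

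The 20 early response and heat shock genes had a median of -0.14 and the 16 genes of the NF-kB response 0.07. The 20 ribosomal proteins had -0.02; each of these 3 lists had 0 past the threshold, with 1 lower, 1 lower and 0 at an unadjusted p of 0.05 and 0 by DESeq2.

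Some markers of other cells stood out in single libraries. Of 12 plasmacytoid dendritic markers 9 were tested, and Bst2, which also is an interferon-response gene, alone passed the threshold. Their summed level was 409 to 579 CPM in the even libraries and 384 to 784 CPM in the odd ones. Siglech had 0, 0, 0 and 1.19 CPM in the even libraries, against 0, 36.8, 0 and 1.19 CPM in the odd libraries, so that the 1 library with much of it was odd. The sum of the myeloid and dendritic list was 123 to 195 CPM in the even libraries and 117 to 355 CPM in the odd ones, with Clec9a, H2-Ab1 and H2-Eb1 listed at 0 in all 8. H2-Aa had 0.269, 0.132, 0.526 and 0.677 CPM in the even libraries, against 0, 34.0, 0.389 and 1.31 CPM in the odd libraries.

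The remaining marker lists were summed in the same way. The B and plasma cell sum was 20.1 to 49.8 CPM in the even libraries and 18.7 to 50.8 CPM in the odd ones. The CD8 and NK sum was 29.1 to 45.5 CPM in the even libraries and 19.5 to 54.1 CPM in the odd ones. The erythroid and platelet sum was 1.73 to 5.40 CPM in the even libraries and 1.84 to 47.5 CPM in the odd ones, and the stromal and epithelial sum was 190 to 317 CPM in the even libraries and 155 to 297 CPM in the odd ones. In these 6 lists, Bst2 apart, 0 genes passed in edgeR's test; at an unadjusted p of 0.05, 3 plasmacytoid dendritic, 1 myeloid and 1 erythroid marker were lower in the even libraries, and DESeq2 called 1 plasmacytoid dendritic marker lower. The part of other cells in the even-odd difference was not tested beyond the fits without single libraries. In bulk samples, fewer cells with a transcript and less of it per cell cannot be told apart.

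**Figure D5:**
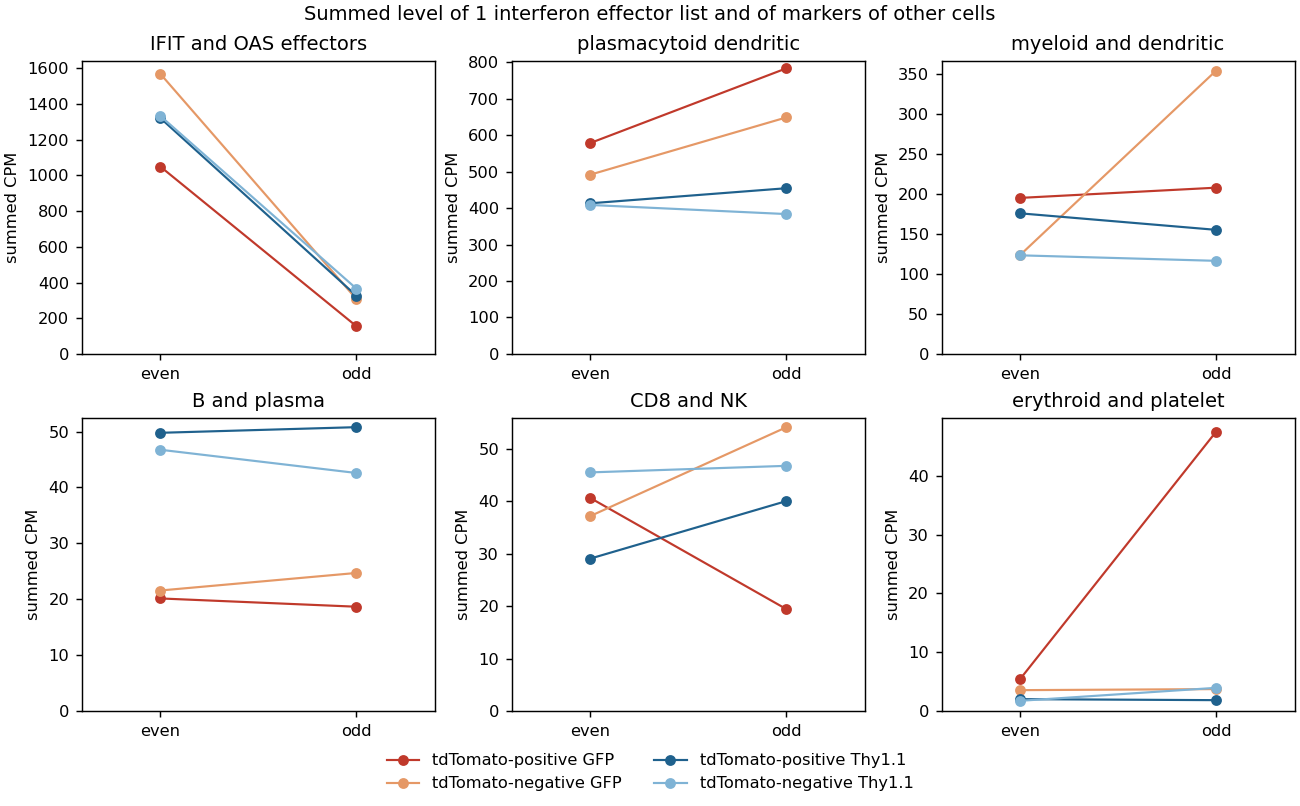
Summed CPM (y axis, from 0, a range of its own per panel) of the IFIT and OAS genes and of 5 lists of markers of other cells in the even library (left) and the odd library (right) of each population; each line joins the libraries of 1 population. The IFIT and OAS sum is higher in all 4 even libraries (1050 to 1570 CPM) than in the odd ones (155 to 366 CPM), while the myeloid and erythroid sums stand out in 1 odd library each.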

How the data were processed

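The authors deposited whole-number read counts per gene in 1 table, with no normalization. Per the labels' protocols, polyadenylated RNA went through 12 cycles of SMART-Seq v4 amplification, and libraries through 8 PCR cycles and paired-end reading. The submitters' processing notes name DESeq, with aligner, counter, annotation and build not given in the sources used here. Of 24116 rows, 8 without a gene name (0.0215% to 0.0264% of counts) were left out. Amplified reads are not independent molecules, and the floor of 3 counts covers counting error alone.

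A filter on low counts (edgeR's filterByExpr, minimum count 10) left 13989 genes, and libraries were scaled by TMM. Versions were edgeR 4.0.16 and DESeq2 1.42.0, on limma 3.58.1 and R 4.3.3. The quasi-likelihood fit, tested on simulated data, used a mean per population plus the even-odd term (3 residual degrees of freedom, biological coefficient of variation 0.375), or the means alone (4 degrees, 0.399). P-values were adjusted by Benjamini-Hochberg. The labels do not say that libraries came from separate mice, so p-values measure a spread that may be technical.

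The members, the 26 gene lists and the tests were chosen with earlier results of these data known. Any interferon list gene could be named. Levels by library are given for those with a mean of at least 20 CPM among the 12 largest differences and for 14 chosen ones, 1 of which is not reported here. Outside the lists, those named were the 10 largest differences past the threshold, at a mean of 5 CPM or more, gene models left out, and up to 4 genes of each other list by smallest p. Genes in the observations were picked with their values in view. Alternatives were RLE factors, no or a stricter filter (1 CPM in all 8 libraries), DESeq2, subsets, a replicate block, and leaving out each library.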

Additional observations from a re-analysis of the deposited data

Results flagged for a closer look

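For 86 genes examined singly, each side of 4 libraries was searched for 1 library far from the other 3, by Dixon's criterion. Of 165 such groups, 20 were flagged. The 4 libraries of a side come from 4 different populations, so a flag can mark a difference between populations. The criterion's rate of about 1 in 20, which holds for like samples, is therefore no yardstick here. Of the interferon-response genes, Ly6a stood out at 746 CPM in the even tdTomato-positive GFP library, and Ifit3b at 7.16 CPM in the odd tdTomato-positive Thy1.1 library, the highest of the odd ones. Tsc22d3 was lowest of the even libraries in tdTomato-positive GFP library 4, at 210.2 CPM.

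The tdTomato-positive GFP libraries gave most of the other flags. In even library 4 these were Cxcr6, a chemokine receptor, at 278 CPM, the protease Gzmb at 347 CPM, the B cell gene Cd79a, the lowest, at 4.30 CPM, and Hba-a2 at 3.55 CPM. In odd library 3 they were Gzmb at 860.2 CPM, Cxcr3 at 148 CPM, the cytotoxic granule gene Nkg7 at 116 CPM, and the haemoglobin genes Hba-a2 at 29.5 CPM and Hbb-bs at 15.3 CPM.

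Odd tdTomato-negative GFP library 3 was flagged for markers of dendritic and myeloid cells: Siglech at 36.8 CPM, H2-Aa at 34.0 CPM, Tyrobp at 8.09 CPM and Spib at 4.89 CPM. Siglech was also flagged in even tdTomato-negative Thy1.1 library 2, at 1.19 CPM against 0 in the other 3. The ectoenzyme Entpd1 was lowest of the even libraries at 55.8 CPM in tdTomato-negative GFP cells. Xist and its antisense partner Tsix, which the counting cannot separate, were lowest of the odd libraries in tdTomato-negative Thy1.1 cells, at 186 CPM each.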

How the results depend on the processing

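The count of 65 genes past the even-odd threshold was 67 with RLE factors, 89 without a filter, 112 with the stricter filter (108 higher, 4 lower) and 229 with DESeq2 (190 higher, 39 lower). It was 32 in Thy1.1 libraries alone, 11 in GFP libraries alone (10 higher, 1 lower), 13 in tdTomato-positive and 10 in tdTomato-negative libraries alone, where fewer libraries were fitted, and 27 to 57 without 1 library. The median of the interferon-response genes, 0.66, lay between 0.58 and 0.76 under all of these, a description only, since the split was chosen on them. The 22 genes examined singly that were past the threshold all passed with RLE factors, no filter, the stricter filter and DESeq2, and 4 to 10 of them were lost without 1 library.

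Interferon-response genes past the threshold between populations numbered 4 to 19 without 1 library for GFP over Thy1.1 in tdTomato-positive cells (17 in all), and 5 to 19 for tdTomato-positive over tdTomato-negative in GFP cells (16 in all). DESeq2 called 25 and 24 there (18% and 17.3%, against 22.6% and 21.3% of all tested genes). It called 1 for GFP over Thy1.1 in tdTomato-negative cells (0.719%, against 4.15% of all tested genes). The interactions gave 124 and 4 genes with DESeq2, and 0 to 1 and 0 without 1 library. With the number as a replicate block the 17 became 42 (9 higher, 33 lower) and the 16 became 38 (10 higher, 28 lower), so that their shares turned from below to above those of all tested genes, the other counts stayed at 0, and the same comparisons over all genes gave 2214 with the block against 2074 without it, and 1856 against 1768. Over all tested genes, the even-odd differences of the populations went together only weakly (correlations 0.026 to 0.045, positive in all 6 pairs of populations). The main fit did not pair libraries by number. Interferon-response genes are a small part of all tested genes, so these correlations cannot decide whether pairing is right for them. The fit without the block counts the even-odd difference as spread.

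At these depths 3 counts, the limit of a count of 0, are 0.0614 to 0.0806 CPM.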

Other observations

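Among the widest even-odd differences outside the lists were those of 3 genes with no known place in the interferon response; they were picked after their values were seen and carry no test. Capn11, a calpain protease, had 7.12, 6.45, 5.67 and 5.88 CPM in the even libraries, against 0.226, 0.195, 0.184 and 0.169 CPM in the odd libraries, which is 265, 293, 248 and 252 counts against 10, 9, 9 and 8 counts. Eps8l1, a regulator of the actin cytoskeleton, had 35.1, 25.2, 32.0 and 42.8 CPM in the even libraries, against 0.0226, 0.692, 4.23 and 0 CPM in the odd libraries. D630041G03Rik had 5.08, 3.10, 3.95 and 6.56 CPM in the even libraries, against 0, 0, 1.49 and 0 CPM in the odd libraries. Even and odd libraries overlapped in none of the 3, and Capn11 alone passed the even-odd threshold, with nearly 1 size of difference in all 4 populations (log2 4.87 to 5.03).

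Further genes missing from the lists, picked in the same way, did not overlap between the numbers. Mov10, an antiviral RNA helicase, had 71.3, 124, 102 and 98.7 CPM in the even libraries, against 31.9, 64.7, 70.3 and 63.9 CPM in the odd libraries. Gbp11 had 10.5, 10.5, 13.4 and 15.7 CPM in the even libraries, against 4.87, 6.45, 4.54 and 5.93 CPM in the odd libraries. The chemokine receptor Cxcr4 had 9.51, 9.06, 14.1 and 13.8 CPM in the even libraries, against 5.01, 1.80, 8.31 and 5.48 CPM in the odd libraries. In the opposite direction, the peptide transporter Slc15a2 had 3.22, 1.78, 9.85 and 9.99 CPM in the even libraries, against 23.6, 23.8, 15.0 and 16.7 CPM in the odd libraries. Outside the interferon lists, 127 genes were higher and 102 lower in all even libraries than in all odd ones.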
